A study of Homo sapiens with 6 samples.

Results

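The genes described here are the components, inhibitors and inflammatory products of the NF-kB pathway in OCI-AML3 cells given an siRNA against mutant NPM1. They were taken by symbol from a list of 37 genes, chosen with earlier results of these data known. All 37 were found among the 28307 genes of the count table. The list holds 5 NF-kB subunits, 6 brakes, 6 cytokines or cytokine antagonists, 8 chemokines, 6 survival and signalling genes and 6 surface, enzyme and other target genes. Of the 37, 34 passed the filter on low counts and were tested. IL6, CCL4 and BIRC3 did not pass and are given by their counts. CXCL10 passed only through the siNPM1c libraries, so it had to differ.

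OCI-AML3, a human cell line established from acute myeloid leukaemia, is known for its mutated NPM1, which sends the nucleophosmin protein to the cytoplasm (NPM1c). The labels give bone marrow as the tissue, acute myeloid leukemia blast as the cell type and WT as the genotype of every sample. RNA sequencing of total RNA compared 3 libraries of cells given a control siRNA (siControl) with 3 of cells given the NPM1c siRNA (siNPM1c), each at 10 nM with the same lipid reagent and each collected on day 3. The labels describe 1 cell line and 1 siRNA treatment per group, so effects of the siRNA itself and of lower NPM1c cannot be told apart. Nothing in the labels says that replicates came from separate cultures, so p-values reflect the variation among the 6 libraries, and that may be technical.

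NF-kB is a family of dimeric transcription factors built from the subunits p50, p52, RelA, RelB and c-Rel. In resting cells, IkB proteins hold the dimers in the cytoplasm. Signals from receptors of tumour necrosis factor, interleukin-1 and microbial products activate IkB kinase, which marks IkB for destruction and frees the dimers to bind kB sites. Among the target genes are the pathway's own brakes, so that activation is followed by shutdown. In myeloid cells the pathway is known for driving cytokines, chemokines and survival genes.

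NPM1, the siRNA target and the gene of nucleophosmin, had 922, 1366 and 922 counts in siControl and 293, 500 and 350 in siNPM1c, 2.15-fold lower after scaling (edgeR adjusted p = 5.82e-51). Counts are per gene and pool mutant and wild-type transcripts, so how far each of them fell cannot be read from these values. Libraries held 15075235 to 25190122 counts. Ribosomal RNA took 63.0% to 64.5% of them in siControl and 69.4% to 71.1% in siNPM1c, and protein-coding genes 28.1% to 29% and 21.3% to 22.3%. Levels are given as CPM, a count relative to the library size after TMM, a scaling that centres the bulk of genes on no change. When plain library sizes were used, so that the larger ribosomal share counts as depth, the median of all genes moved by -0.47 on the log2 scale. Of 8 myeloid markers, 7 were tested (all but KIT), 4 were higher and 1 was lower (2 and 5 under library sizes alone), and the summed level of the 8 was 389 to 393 CPM in siControl and 460 to 475 CPM in siNPM1c. CD3D, HBB, GP9 and PF4, which mark T cells, red cells and platelets, had 0 counts in every library, and the summed T cell markers reached at most 0.24 CPM in any library. The summed level of 5 B cell markers was 1.34 to 2.56 and 4.29 to 5.20 CPM, and that of 4 endothelial markers 0.362 to 0.723 and 1.58 to 2.16 CPM. Their part in the results was not tested.

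Most tested members were higher in the siNPM1c libraries relative to the bulk of genes. At an adjusted p under 0.05 (siNPM1c minus siControl, edgeR's quasi-likelihood test, Benjamini-Hochberg over all genes tested), 26 of 34 tested members were higher, 2 were lower and 6 were not called. Without CXCL10 these were 25 of 33 higher. Among all 12938 genes tested, 42.7% were called, 21.3% higher and 21.4% lower. Since the list was chosen with earlier results of these data known, its distance from these shares is a description and no test. The median log2 fold change was 0.30 over the tested members and -0.01 over all genes tested. The split with library sizes alone turned to 6 higher (17.6%) and 15 lower (44.1%), where 3.9% of all genes tested were higher and 71.5% lower, and the members' median to -0.17 beside -0.48 for all genes. The distance between the members' median and that of all genes was 0.31, and 31 of the 34 tested members lay above the median of all genes. A change of scaling shifts all genes by nearly the same amount, so both values are nearly fixed by construction and no sign that the scalings concur. Directions below are relative to TMM scaling unless stated. The groups did not overlap in 26 members that were higher and 1 that was lower, where 24.3% and 24.9% of all genes tested did so. In bulk RNA, fewer cells of a type and less RNA per cell cannot be told apart.

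**Figure D1:**
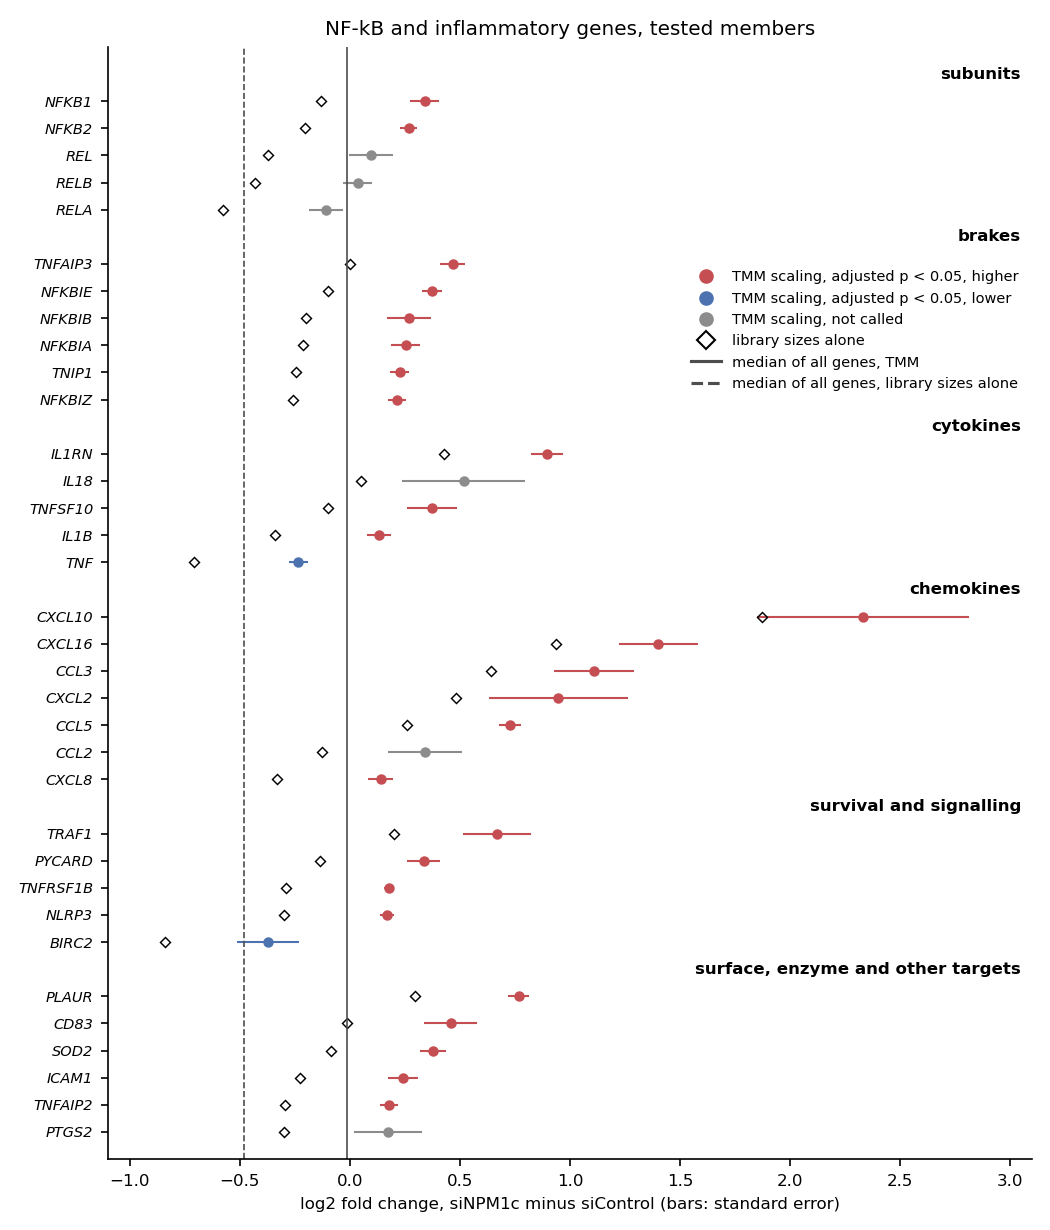
Log2 fold change, siNPM1c minus siControl, of the 34 tested members by class, with the standard error as bars (filled circles, TMM scaling) and the value under library sizes alone (open diamonds). Under TMM 26 members were called higher and 2 lower, and under library sizes alone 22 members turn sign, with the median of all genes (vertical lines) moved by nearly the same amount as the members.

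Among the 5 subunits, the genes of the precursors rose and those of the other subunits did not pass the test, with a class median of 0.10 log2 that became -0.37 under library sizes alone. NFKB1 encodes p105, the precursor of p50. Its levels were 19.8, 19.3 and 20.9 CPM in siControl and 24.5, 25.8 and 25.1 CPM in siNPM1c. The groups did not overlap, and the log2 fold change was 0.34 ± 0.07 (SE; adjusted p = 3.68e-06), with -0.13 under library sizes alone. NFKB2, which encodes p100, the precursor of p52 in the noncanonical branch, was at 61.5, 59.4 and 61.4 CPM in siControl and 69.7, 74.0 and 74.9 CPM in siNPM1c. Every siNPM1c library was again above every siControl library, a change of 0.27 ± 0.04 log2 (SE; adjusted p = 8.73e-10) that was -0.20 under library sizes alone.

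RELA, the gene of the main transactivating subunit p65, was at 16.8, 16.4 and 18.5 CPM in siControl and 17.1, 15.4 and 15.3 CPM in siNPM1c. These ranges overlapped, and the difference of -0.11 ± 0.08 log2 (SE) did not pass the test (adjusted p = 0.258). REL, the gene of c-Rel, ran from 8.79 to 9.38 CPM in siControl and from 8.78 to 10.3 CPM in siNPM1c (0.10 ± 0.10 log2, SE). RELB, whose product pairs with p52, ran from 20.8 to 23.6 and from 22.6 to 23.2 CPM (0.04 ± 0.07 log2, SE). With a correction for GC content, REL was called higher (0.33, adjusted p = 0.00365) and RELA lower (-0.20, adjusted p = 0.0247). Under library sizes alone, where 71.5% of all genes tested were lower, 4 of the 5 subunits were called lower. Among them were RELA (-0.58, adjusted p = 2.43e-12), REL (-0.37) and RELB (-0.43). These calls thus depended on the setting.

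The stretch before the start of NFKB1 is shown because it holds a kB motif next to a gene that rose. It lies on the plus strand at chr4:102501109-102501328 (GRCh38.p14, RefSeq, trimmed where GENCODE 29 places the first exon), with the kB motif in capitals.
NFKB1: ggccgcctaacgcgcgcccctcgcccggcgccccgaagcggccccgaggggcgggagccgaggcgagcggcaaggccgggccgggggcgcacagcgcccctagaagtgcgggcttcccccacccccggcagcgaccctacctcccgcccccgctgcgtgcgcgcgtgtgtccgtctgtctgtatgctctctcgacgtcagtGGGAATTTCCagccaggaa

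All 6 brakes rose under TMM scaling, with a range from 0.22 to 0.47 log2, where 21.3% of all genes tested were higher. All 6 turned sign under library sizes alone, with 3 of them called lower, where 71.5% of all genes tested were lower. TNFAIP3 encodes A20, a ubiquitin-editing enzyme that shuts down signalling to IkB kinase. It was at 25.9, 26.1 and 25.6 CPM in siControl and at 34.8, 35.5 and 37.0 CPM in siNPM1c, or 1.38-fold higher. The groups stood well apart, with a log2 fold change of 0.47 ± 0.06 (SE; adjusted p = 1.96e-13) that was -0.001 under library sizes alone. NFKBIE, the gene of IkB epsilon, was at 43.8, 40.5 and 43.3 CPM in siControl and at 55.4, 56.5 and 51.9 CPM in siNPM1c. All siNPM1c libraries were the higher ones (0.37 ± 0.05 log2, SE; adjusted p = 5.12e-13), with -0.10 under library sizes alone.

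NFKBIA, the gene of IkB alpha and the classic feedback target, was at 20.6, 19.6 and 20.4 CPM in siControl and at 24.7, 22.0 and 26.1 CPM in siNPM1c. The siNPM1c libraries spread more widely and did not overlap the siControl libraries (1.19-fold, adjusted p = 0.000837). NFKBIB, the gene of IkB beta, rose by 0.27 ± 0.10 log2 (SE; adjusted p = 0.0217), a call lost without siControl replicate 1 or siNPM1c replicate 2, with DESeq2, with no filter beyond 1 count and with the GC correction (0.16, adjusted p = 0.191). NFKBIZ, a nuclear IkB-like cofactor that is needed for a subset of targets, went from 57.4 ± 0.457 to 66.1 ± 6.22 CPM (SD, n = 3). TNIP1, a partner of A20, went from 48.1 ± 2.16 to 56.0 ± 1.92 CPM (SD, n = 3). NFKBIA, NFKBIZ and TNIP1 under library sizes alone were called lower, at -0.21, -0.26 and -0.24 log2.

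A pair of kB motifs lies 2 bases apart in front of the RefSeq start of TNFAIP3, on the plus strand at chr6:137867192-137867213 (GRCh38.p14, RefSeq). The 22 bases are shown because TNFAIP3 had the smallest p of the members that hold a kB motif in this window. Both motifs are in capitals and are read from the opposite strand.
TNFAIP3: GGAAAGTCCCgtGGAAATCCCC

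**Figure D2:**
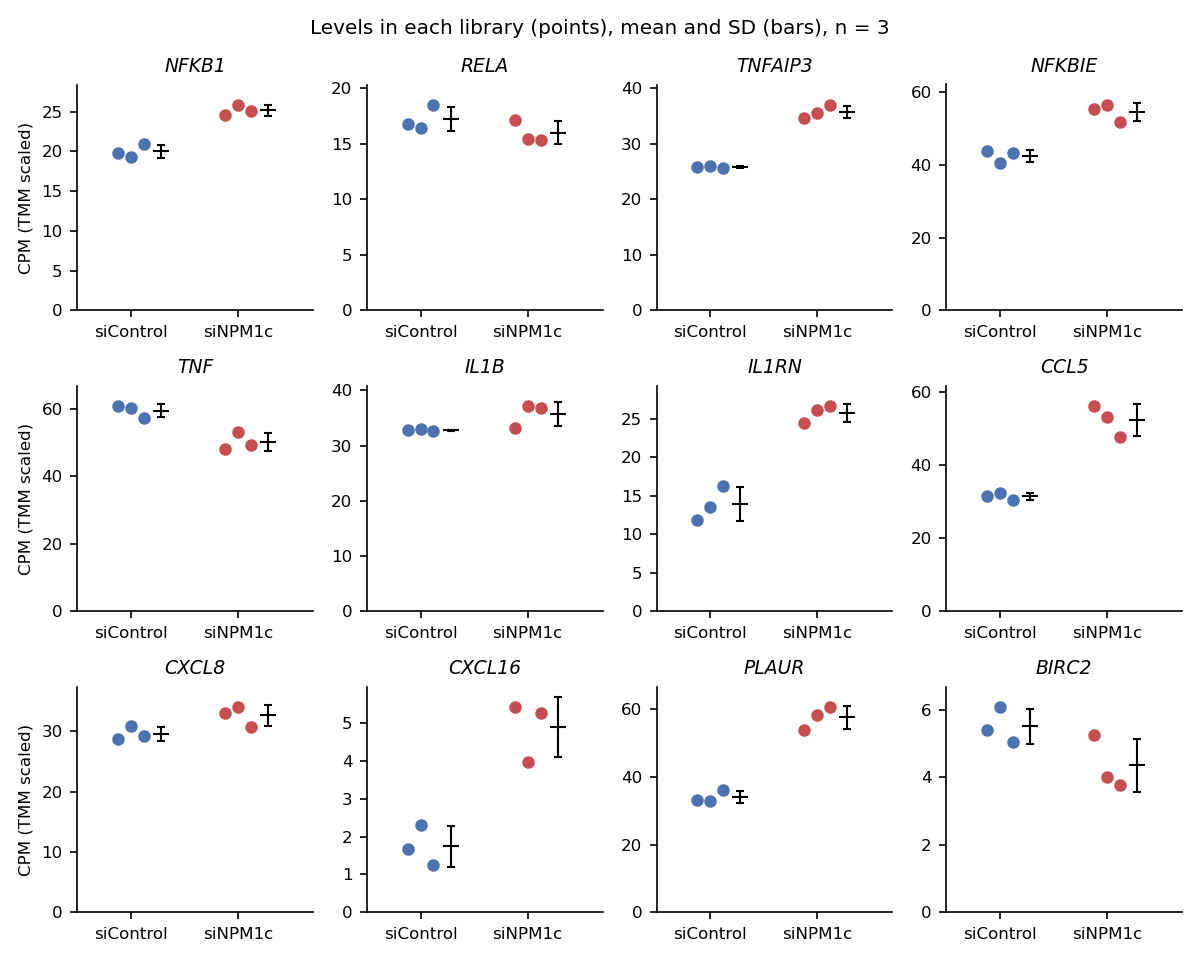
CPM under TMM scaling of 12 members in each of the 3 siControl and 3 siNPM1c libraries (points), with the mean and SD (bars). TNF is the single panel in which every siNPM1c library lies below every siControl library, and RELA, CXCL8 and BIRC2 are the panels in which the groups overlap. Under library sizes alone the sign turns for NFKB1, TNFAIP3, NFKBIE, IL1B and CXCL8.

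The cytokine genes did not move together. TNF fell while IL1RN rose most of the class. TNF, the gene of tumour necrosis factor, was at 60.8, 60.2 and 57.2 CPM in siControl and at 48.1, 53.2 and 49.2 CPM in siNPM1c. All siNPM1c libraries were below all siControl libraries, a 1.18-fold decrease (-0.24 ± 0.04 log2, SE; adjusted p = 1.16e-06) that was kept in all 17 alternative settings and was -0.71 under library sizes alone. IL1RN encodes the secreted antagonist of the interleukin-1 receptor. It was at 11.9, 13.6 and 16.3 CPM in siControl and at 24.5, 26.2 and 26.7 CPM in siNPM1c. The groups were far apart although the siControl libraries differed among themselves (1.86-fold, adjusted p = 1.97e-25), and IL1RN was higher also under library sizes alone (0.43 log2, adjusted p = 5.25e-08).

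IL1B, the gene of interleukin-1 beta, was at 32.8, 32.9 and 32.7 CPM in siControl and at 33.2, 37.2 and 36.9 CPM in siNPM1c. The lowest siNPM1c library lay just above the siControl libraries. The increase of 0.13 ± 0.05 log2 (SE; adjusted p = 0.0359) lost its call in 8 of the 17 settings and turned to a called decrease of -0.34 in a ninth, library sizes alone. Among the lost calls were those without siControl replicate 1, 2 or 3 and without siNPM1c replicate 2 or 3. TNFSF10, the gene of the death ligand TRAIL, which interferon also induces, rose 1.29-fold from 6.49 ± 0.208 to 8.34 ± 0.541 CPM (SD, n = 3; adjusted p = 0.00416), with -0.10 log2 under library sizes alone. IL18, whose product needs cleavage by an inflammasome, was at 0.754 to 1.12 CPM in siControl and 1.28 to 1.58 CPM in siNPM1c. The groups did not overlap, but the difference of 0.52 ± 0.28 log2 (SE) did not pass the test (adjusted p = 0.129), while with the GC correction it did (0.70, adjusted p = 0.0371). IL6 had 1 count in siControl replicate 1, 1 count in siNPM1c replicate 3 and 0 in the other 4 libraries, and a library with 0 counts allows up to 3.

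Chemokines held the largest increases of the members. Of 7 tested, 6 rose and 0 fell, beside 21.3% and 21.4% of all genes tested. Their median of 0.95 log2 was still 0.48 under library sizes alone. In that setting 4 were called higher and CXCL8 was called lower, beside 3.9% and 71.5% of all genes tested. Without CXCL10, 5 of 6 rose, with a median of 0.84. CCL5, or RANTES, attracts T cells and monocytes. It was at 31.7, 32.4 and 30.5 CPM in siControl and at 56.2, 53.2 and 47.8 CPM in siNPM1c, or 1.66-fold higher. Every siNPM1c library exceeded every siControl library by a wide margin (0.73 ± 0.05 log2, SE; adjusted p = 1.61e-32), and the increase was 0.26 under library sizes alone (adjusted p = 6.3e-06). CXCL16, a membrane-bound chemokine, had 30, 64 and 23 counts in siControl and 72, 83 and 78 in siNPM1c, which gave 1.67, 2.32 and 1.24 against 5.42, 3.98 and 5.27 CPM. The groups did not overlap, although both were uneven (2.64-fold, adjusted p = 4.96e-12).

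CCL3, the gene of MIP-1 alpha, had 39, 44 and 39 counts in siControl and 54, 81 and 67 in siNPM1c. This was a 2.16-fold increase from 1.95 ± 0.314 to 4.16 ± 0.332 CPM (SD, n = 3; adjusted p = 5.48e-08). Its neighbour CCL4, the gene of MIP-1 beta, 13683 bases away on chromosome 17, had 0 counts in all 6 libraries, which allows up to 3 counts per library, or 0.119 to 0.199 CPM of unadjusted library size. CCL4L2, a near-identical copy of CCL4 and not a member, had 0, 0 and 1 counts in siControl and 12, 11 and 5 in siNPM1c. It was looked up after the 0 counts of CCL4 had been seen. CCL3L1, CCL3L3 and CCL4L1, the other listed copies, had 0 counts in every library. How reads that fit several copies were counted is not given in the sources used here, so single values of CCL3 and CCL4 are uncertain.

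CXCL10, or IP-10, a chemokine that interferon strongly induces, was rare, with 5, 1 and 4 counts in siControl and 11, 18 and 11 in siNPM1c. Its level went from 0.176 ± 0.125 to 0.811 ± 0.0614 CPM (SD, n = 3), with a log2 fold change of 2.33 ± 0.48 (SE; adjusted p = 1.56e-05) that ran from 1.70 to 2.83 over the settings other than library sizes alone. CXCL10 passed the count filter only through siNPM1c, so a difference was set by the filter and its p is no support. CXCL2, which attracts neutrophils, had 15, 15 and 12 counts in siControl and 20, 21 and 21 in siNPM1c. Its 1.93-fold increase (adjusted p = 0.0096) was not called by DESeq2 or without siControl replicate 2 or siNPM1c replicate 1. CXCL8, or interleukin-8, which attracts neutrophils, was at 28.7, 30.8 and 29.2 CPM in siControl and 33.1, 34.0 and 30.7 CPM in siNPM1c. The groups overlapped. The increase of 0.14 ± 0.06 log2 (SE; adjusted p = 0.0341) lost its call without siControl replicate 1 or 3 and without siNPM1c replicate 1 or 2. That call was also lost with upper-quartile factors, with no filter beyond 1 count and with DESeq2. The change was a called decrease of -0.33 under library sizes alone and 0.41 with the GC correction. CCL2, the monocyte chemoattractant MCP-1, was at 2.37 to 3.73 CPM in siControl and 2.97 to 4.46 CPM in siNPM1c (0.34 ± 0.17 log2, SE; adjusted p = 0.0905). It was called higher without siControl replicate 1 or siNPM1c replicate 3 and with the GC correction, and was -0.13 log2 under library sizes alone.

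CXCL10 had the smallest p of the chemokines with a kB motif in this window, although the count filter favoured its call. Its upstream stretch is shown for the motifs it holds. The 250 bases end at the start of the gene on the minus strand, at chr4:76023498-76023747 (GRCh38.p14, RefSeq), and are written 5′ to 3′ with the kB motifs in capitals. The second motif reads as a kB motif on both strands. A further match, to the interferon response motif GAAANNGAAA, lies 221 to 212 bases before the start in lower case and overlaps no kB motif.
CXCL10: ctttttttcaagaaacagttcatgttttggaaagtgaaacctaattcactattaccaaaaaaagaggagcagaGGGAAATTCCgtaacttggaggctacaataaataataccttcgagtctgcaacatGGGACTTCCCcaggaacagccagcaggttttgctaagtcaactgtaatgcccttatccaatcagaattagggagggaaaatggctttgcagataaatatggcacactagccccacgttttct

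Of 5 tested survival and signalling genes, 4 rose and BIRC2 fell, beside 21.3% and 21.4% of all genes tested. Their median of 0.18 log2 was -0.29 under library sizes alone. In that setting 3 were called lower, beside 71.5% of all genes tested. TNFRSF1B encodes TNFR2, a receptor of tumour necrosis factor. It was at 357, 340 and 344 CPM in siControl and 392, 389 and 395 CPM in siNPM1c. The groups were apart but the step was small, 1.13-fold (0.18 ± 0.02 log2, SE; adjusted p = 7.83e-14), and -0.29 under library sizes alone, where it was called lower. NLRP3, the sensor of an inflammasome, rose 1.12-fold from 106 ± 1.17 to 119 ± 3.62 CPM (SD, n = 3; adjusted p = 1.1e-06), with a called decrease of -0.30 log2 under library sizes alone. PYCARD encodes ASC, the adaptor that joins such sensors to caspase-1, and rose 1.26-fold (adjusted p = 7.09e-05), with -0.13 log2 under library sizes alone. TRAF1, an adaptor of TNF receptors, was at 3.06, 3.15 and 3.18 CPM in siControl and 4.21, 5.32 and 5.27 CPM in siNPM1c, or 1.59-fold higher (adjusted p = 0.000125), with 0.20 log2 under library sizes alone, which did not pass the test.

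BIRC2 and BIRC3 encode the ubiquitin ligases cIAP1 and cIAP2, which support survival signalling from TNF receptors and restrain the noncanonical branch. They are neighbours on chromosome 11, 7810 bases apart. BIRC2 was at 5.39, 6.09 and 5.06 CPM in siControl and 5.27, 4.02 and 3.78 CPM in siNPM1c. The groups overlapped, since siNPM1c replicate 1 lay above siControl replicate 3. The decrease of -0.37 ± 0.14 log2 (SE; adjusted p = 0.0229) lost its call without siControl replicate 2 or siNPM1c replicate 2 or 3, with DESeq2 and with the GC correction (-0.22, adjusted p = 0.218). BIRC3 had 8, 8 and 9 counts in siControl and 1, 2 and 3 in siNPM1c. Every siNPM1c library was below every siControl library, but BIRC3 was under the count filter. Without that filter its log2 fold change was -1.65 ± 0.69 (SE) and did not pass the test (adjusted p = 0.0631).

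Among surface, enzyme and other targets, 5 of 6 tested genes rose and 0 fell, beside 21.3% and 21.4% of all genes tested. Their median of 0.31 log2 was -0.16 under library sizes alone. PLAUR, the receptor of urokinase, had the smallest p of all members. It was at 33.1, 32.9 and 36.0 CPM in siControl and at 53.9, 58.1 and 60.5 CPM in siNPM1c. All siNPM1c libraries were far above the siControl libraries (1.70-fold, 0.77 ± 0.05 log2, SE; adjusted p = 3.57e-37), and it was called higher in all 17 alternative settings, with 0.30 under library sizes alone. CD83, a marker of activated antigen-presenting cells, was at 5.49 to 5.67 CPM in siControl and 7.47 to 7.97 CPM in siNPM1c (1.37-fold, adjusted p = 0.000819), with -0.01 log2 under library sizes alone.

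SOD2, the mitochondrial superoxide dismutase and a strong NF-kB target, rose 1.30-fold from 24.6 ± 1.58 to 32.3 ± 1.44 CPM (SD, n = 3; adjusted p = 7.87e-09), with -0.09 log2 under library sizes alone. ICAM1, an adhesion molecule for leukocyte integrins, rose 1.18-fold (adjusted p = 0.00244). That call was lost without siNPM1c replicate 2 and turned to a called decrease of -0.23 log2 under library sizes alone. TNFAIP2, a TNF-induced gene tied to membrane protrusions, rose 1.13-fold (adjusted p = 8.14e-05), with -0.29 log2 under library sizes alone, a called decrease. Its call was lost with the GC correction (0.09, adjusted p = 0.057). PTGS2, or cyclooxygenase-2, was at 3.37 to 4.47 CPM in siControl and 3.69 to 4.50 CPM in siNPM1c (0.17 ± 0.16 log2, SE; adjusted p = 0.385). With the GC correction it was called higher (0.42, adjusted p = 0.0215), and it was -0.30 under library sizes alone.

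A ratio of the raw counts of 2 genes within a library does not depend on how libraries are scaled. Such ratios were formed for 4 pairs, chosen after the values of the genes had been seen, and they show unequal change within each pair, not which gene changed. For IL1RN to IL1B, antagonist to agonist, the ratios were 0.363, 0.413 and 0.498 in siControl and 0.738, 0.704 and 0.723 in siNPM1c. For TNFAIP3 to TNF they were 0.425, 0.433 and 0.448 in siControl and 0.722, 0.668 and 0.752 in siNPM1c. For NFKB1 to RELA they were 1.18, 1.18 and 1.13 in siControl and 1.43, 1.67 and 1.64 in siNPM1c. For CCL5 to CXCL8 they were 1.10, 1.05 and 1.04 in siControl and 1.70, 1.56 and 1.55 in siNPM1c. In each pair all siNPM1c libraries were above all siControl libraries, with log2 differences of 0.78, 0.71, 0.44 and 0.59 in that order. For each pair the two-sided exact permutation p was 0.1, the smallest that 3 libraries against 3 can give.

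**Figure D3:**
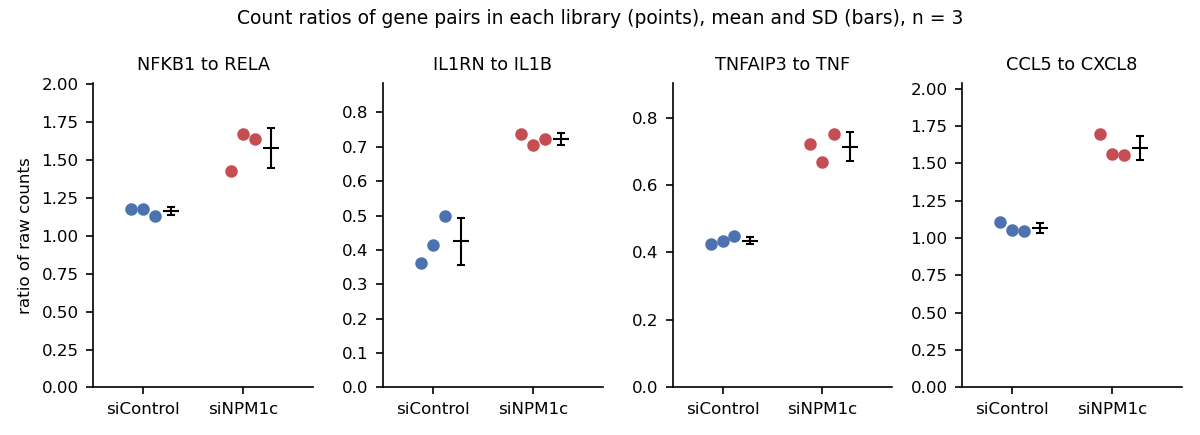
Ratio of raw counts of 4 gene pairs in each library (points), with the mean and SD (bars, n = 3). In every pair the siNPM1c libraries lie above the siControl libraries, as for IL1RN to IL1B with 0.363 to 0.498 against 0.704 to 0.738.

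Levels of different genes can be compared only per length of their exons. Per kilobase of exon (union of GENCODE 29 exons), the siControl order was led by TNFRSF1B at 92.1 CPM per kilobase, TNF at 35.4, NLRP3 at 22.3 and CCL5 at 20.8. In siNPM1c, CCL5 at 34.6 CPM per kilobase stood above TNF at 29.9, with TNFRSF1B at 104.1 and NLRP3 at 25.1. Among the subunits NFKB2 led, at 13.6 in siControl and 16.2 in siNPM1c, ahead of RELB at 7.33 and 7.56, while NFKB1 and RELA were close in siControl at 3.20 and 3.15 CPM per kilobase. These lengths weigh every annotated exon alike, and 19 of 37 members overlap another RefSeq gene. Without the strand setting of the counting, which is not given in the sources used here, reads of such a gene and of an overlapping gene cannot be told apart.

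Members were also compared by the motifs in a window before a RefSeq start. Many of the genes are known as NF-kB targets, so a kB share above that of all promoters is partly built into the choice. A window of 250 bases was available for 30 of the 37 members. RELB, NFKBIE, IL18, CXCL16, CCL2, CCL4 and CCL5 had none. For TNFAIP3, IL1RN, TNIP1, SOD2 and TNFAIP2 the window lies inside the span of the gene. That of NLRP3 runs past the first base of its span. For these genes the matches do not describe bases before the whole gene. A kB motif (both strands searched, the consensus of the family) was present in 9 of the 30, or 30.0%, and in 9.96% of all 35116 promoters of the same length. Of the 23 members with a window that were called higher, 6 held it, or 26.1%. The 9 genes were NFKB1, REL, NFKBIA, NFKBIZ, TNFAIP3, IL6, CXCL2, CXCL10 and BIRC3. They thus included genes that rose, REL, which did not pass the test, and IL6 and BIRC3, which were not tested. PLAUR, IL1RN and TNF, with the smallest p of their direction or class, had no match in this window. The motif GAAANNGAAA was present for RELA, TNFSF10, CXCL10 and TNFRSF1B, or 13.3%, and in 3.02% of all promoters. A match describes letters and says nothing of binding.

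The other genes of the pathway gave a more divided picture than the members. Both lists were chosen with earlier results of these data known, so this difference is a description and no test. Of 132 listed, 109 were tested, and 45 (41.3%) were higher and 20 (18.3%) lower, against 21.3% and 21.4% of all genes tested. With library sizes alone these were 9 higher (8.26%) and 69 lower (63.3%), against 3.9% and 71.5% of all genes tested. TNIP3 passed the count filter only through siNPM1c, and IL18R1, CXCR6 and NLRC4 only through siControl, so the choice of tested genes favours their directions. TLR9 reached the filter's cutoff in 3 siNPM1c but 2 siControl libraries, so its direction was favoured too. The median log2 fold change was 0.17, and -0.30 under library sizes alone.

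**Figure D4:**
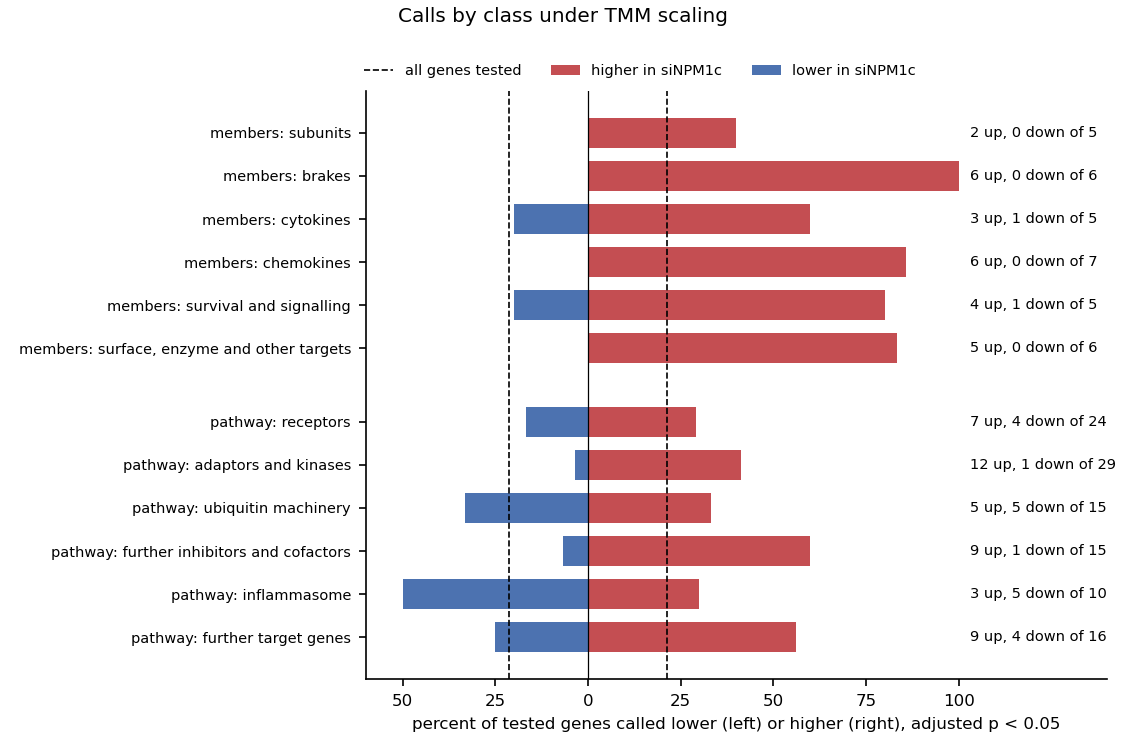
Percent of the tested genes in each class called higher (right) or lower (left) in siNPM1c under TMM scaling, with the shares among all genes tested as dashed lines (21.3% and 21.4%). All 6 brakes are higher, and the inflammasome list has more genes lower (5) than higher (3) of 10. That excess of lower genes was not kept with the GC correction. Under library sizes alone the brakes turn to 0 higher and 3 lower, beside 3.9% and 71.5% of all genes tested.

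Among 24 tested receptors, 7 rose (29.2%) and 4 fell (16.7%), beside 21.3% and 21.4% of all genes tested. Under library sizes alone 3 rose and 15 fell, beside 3.9% and 71.5% of all genes tested. CCR2, the receptor of CCL2 on monocytes, was at 12.7 ± 1.97 CPM (SD, n = 3) in siControl and 22.6 ± 0.51 CPM in siNPM1c, 1.77-fold higher. CD14, the lipopolysaccharide coreceptor and a monocyte marker, rose 1.77-fold from 6.24 ± 1.14 to 11.2 ± 1.15 CPM. These 2 were called higher also under library sizes alone. IL6R, a receptor chain for interleukin-6, rose 1.18-fold, with a called decrease of -0.23 log2 under library sizes alone. CXCR4, the homing receptor for CXCL12, fell 1.43-fold from 38.1 ± 2.13 to 26.9 ± 1.22 CPM, TLR2, which senses bacterial lipopeptides, 1.40-fold, and TNFRSF11A, or RANK, 1.38-fold. Whether the higher monocyte receptors bear on the members' values was not tested.

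Of 29 tested adaptors and kinases, 12 rose (41.4%) and 1 fell (3.45%), beside 21.3% and 21.4% of all genes tested. Under library sizes alone 1 rose and 20 fell, beside 3.9% and 71.5% of all genes tested. IRAK1, a kinase that relays signals of Toll-like and interleukin-1 receptors, rose 1.39-fold from 102 ± 2.53 to 142 ± 1.49 CPM (SD, n = 3), with 0.01 log2 under library sizes alone. MYD88, the adaptor it works with, rose 1.45-fold (0.07 under library sizes alone), and IRAK2, a second kinase, rose 2.23-fold from 4.70 ± 0.636 to 10.2 ± 1.24 CPM and was called under both scalings. TAB2, an adaptor of the kinase TAK1, was 1.25-fold lower (adjusted p = 0.0239) with overlapping groups. Its call was lost without siControl replicate 1 or 3 or siNPM1c replicate 1, with DESeq2 and with the GC correction.

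In the ubiquitin machinery, 5 of 15 tested genes rose (33.3%) and 5 fell (33.3%), beside 21.3% and 21.4% of all genes tested. Under library sizes alone 1 rose and 12 fell, beside 3.9% and 71.5% of all genes tested. RBCK1 encodes HOIL-1, a subunit of the linear ubiquitin ligase LUBAC, and went up 1.58-fold, from 55.5 ± 1.61 to 87.8 ± 2.71 CPM (SD, n = 3), a call kept under library sizes alone. The ligase genes TRIM25 (1.22-fold) and CUL1 (1.46-fold) also rose, with -0.18 (a called decrease) and 0.07 log2 under library sizes alone. TAX1BP1, a cofactor of A20, fell 1.60-fold, UBE2N, or Ubc13, which builds the chains that activate TAK1, 1.68-fold, and SKP1, a core part of the ligase that marks IkB for degradation, 1.31-fold, a call lost with the GC correction.

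Further inhibitors and cofactors resembled the brakes in direction, with 9 of 15 tested genes higher (60.0%) and 1 lower (6.67%). The shares of all genes tested were 21.3% and 21.4%. Under library sizes alone 2 were higher and 9 lower, beside 3.9% and 71.5% of all genes tested. IER3, an early response gene, rose 2.71-fold from 4.18 ± 0.78 to 11.6 ± 0.422 CPM (SD, n = 3), and was called higher under library sizes alone (0.97 log2). NLRC5, known as an activator of MHC class I genes, rose 1.42-fold, with 0.04 log2 under library sizes alone, and ZFP36, which destabilises cytokine mRNAs such as that of TNF, rose 1.31-fold, with -0.08. PDLIM2, which promotes removal of nuclear p65, fell 1.25-fold from 30.3 ± 1.28 to 24.2 ± 0.24 CPM.

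Inflammasome genes were divided, with 3 of 10 tested higher and 5 lower, and 0 higher and 8 lower under library sizes alone. GSDMD, the pore-forming gasdermin D, rose 1.38-fold (0.46 ± 0.06 log2, SE), with -0.005 under library sizes alone. MEFV, the sensor pyrin, rose 1.13-fold and NLRP12 1.24-fold, both with called decreases under library sizes alone. IL18BP, the secreted inhibitor of interleukin-18, fell 1.54-fold from 4.73 ± 0.636 to 3.00 ± 0.36 CPM (SD, n = 3), NEK7, which licenses NLRP3, 1.16-fold, and NLRP1, a further sensor, 1.11-fold. NEK7 was 0.06 log2 higher with the GC correction, a turned sign, and lost its call without siControl replicate 2. NLRC4 and CARD8, also called lower, lost their calls with the GC correction (adjusted p = 0.0774 and 0.0977). Another tested gene of the list gained a call as higher there (0.41 log2, adjusted p = 0.0101). The excess of lower genes was therefore not kept with that correction. The call of NLRP1 was lost without siControl replicate 2 or siNPM1c replicate 1 and with DESeq2.

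Of 16 tested further target genes, 9 rose and 4 fell, and under library sizes alone 2 rose and 5 fell. CFLAR, or c-FLIP, which blocks caspase-8, rose 1.37-fold from 72.3 ± 3.51 to 98.2 ± 2.86 CPM (SD, n = 3), with -0.02 log2 under library sizes alone. GADD45B, a stress-response gene, rose 1.52-fold and IRF1, an interferon-responsive transcription factor gene, 1.31-fold, with 0.13 and -0.09 log2 under library sizes alone. CD44, an adhesion receptor, fell 1.36-fold from 22.8 ± 0.584 to 16.7 ± 2.08 CPM, CCND1, the gene of cyclin D1, 1.23-fold, and MMP9, a matrix protease, 1.33-fold from 22.9 ± 1.21 to 17.1 ± 0.76 CPM.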

How the data were processed

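RNA sequencing of total RNA was measured in 3 siControl and 3 siNPM1c libraries. The authors deposited raw counts per gene, whole numbers keyed by Entrez gene identifiers. Per the submitters' processing notes, the tools were STAR 2.7.5a, cutadapt 2.6, CASAVA 1.8 and, for DESeq2, version 1.34.0, and builds mm10 and hg38 were named, all without roles. The counting tool, annotation, strand setting and handling of reads that fit several places are not given in the sources used here. Columns were assigned by the column names in the labels, and groups by the sample titles. Symbols came from NCBI RefSeq (GRCh38.p14) for 28261 of 28307 genes.

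Totals were 15075235 to 25190122 counts per library, of which 3414688 to 6695652 fell on protein-coding genes. Within groups the chi-square of counts per degree of freedom between libraries was 1.46 to 2.36, and no library was treated as a copy. It covered all genes with at least 20 counts in a pair, ribosomal RNA included, so a few genes of high count may have raised it. In the edgeR fit the common coefficient of variation beyond counting error was 2.17%. Whether this variation is technical was not tested. Limits from 0 counts cover counting error only.

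Genes passing filterByExpr of edgeR 4.0.16 (minimum count 10, minimum total 15; R 4.3.3) were scaled by TMM and compared by the quasi-likelihood test (robust, two-sided, siNPM1c minus siControl) with Benjamini-Hochberg adjustment over all 12938 genes tested and a threshold of 0.05. Standard errors were derived from the fold change and its F statistic (absolute value over the root of F). The script was tested on simulated data. The members and lists were chosen with earlier results of these data known. Named are all members, up to 3 called genes of smallest p in each direction of each other list, and NPM1. Stretches of the windows searched for motifs were shown for called members of smallest p with a kB motif, at most 1 per class.

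Alternatives were DESeq2 size factors, upper-quartile factors, library sizes alone, protein-coding genes only, 5 CPM in 3 libraries as the minimum, dropping the filter beyond 1 count, voom of limma 3.58.1, DESeq2 1.42.0, a replicate block, a GC correction (lowess, span 0.3, as an offset) with and without the block, and leaving out each library. Ratios of raw counts were tested by exact permutation.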

Additional observations from a re-analysis of the deposited data

How the results depend on the processing

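Of 28 called members, 21 kept their call and direction in every alternative other than library sizes alone, and 7 (IL1B, CXCL8, CXCL2, ICAM1, NFKBIB, TNFAIP2 and BIRC2) lost it in at least 1. The 21 include CXCL10, which passed the count filter only through siNPM1c, so its kept call is no support. CXCL16, CCL3, CCL5, IL1RN and PLAUR were called higher and TNF lower in every alternative that tested them, library sizes alone included. Under library sizes alone all genes gave 505 higher and 9253 lower, the members 6 and 15 with a median of -0.17, and the other pathway genes 9 and 69. Among the genes named in the text, the log2 fold changes that turned sign there were those of NFKB1 (-0.13), NFKB2 (-0.20), REL (-0.37), RELB (-0.43), NFKBIA (-0.21), NFKBIB (-0.20), NFKBIE (-0.10), NFKBIZ (-0.26), TNFAIP3 (-0.001), TNIP1 (-0.24), IL1B (-0.34), TNFSF10 (-0.10), CXCL8 (-0.33), CCL2 (-0.13), TNFRSF1B (-0.29), NLRP3 (-0.30), PYCARD (-0.13), ICAM1 (-0.23), CD83 (-0.011), PTGS2 (-0.30), SOD2 (-0.087), TNFAIP2 (-0.29), ZFP36 (-0.079), CFLAR (-0.022), IRF1 (-0.085), GSDMD (-0.005), MEFV (-0.30), NLRP12 (-0.157), IL6R (-0.23) and TRIM25 (-0.178). That setting takes the larger ribosomal share as depth. RELB, never called outside library sizes alone, also turned sign with the GC correction (-0.081, and -0.082 with the block) and ran from -0.006 to 0.093 when each library was left out, below 0 without siControl replicate 1. NEK7 turned sign with the GC correction (0.063, and 0.062 with the block). With DESeq2 the genes called lower were 1754 of all genes and 1 member. Leaving out CXCL10, an alternative chosen after seeing the data, gave 25 members higher and a median of 0.27. The filter of 5 CPM left 26 members with a median of 0.24. Leaving out each library gave 22 to 26 members higher and 1 to 2 lower, the call of BIRC2 being lost without siControl replicate 2 or siNPM1c replicate 2 or 3. Same-numbered replicates share only a number. The replicate block gave 2793 genes higher and 2793 lower, and 26 and 2 members. Correlations of the deviations of same-numbered libraries were 0.019, -0.003 and -0.004, and not every library correlated best with its own number. Depth limits IL6, CCL4, BIRC3, CXCL10, CXCL2 and IL18, which had at most 33 counts in any library.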

Other observations

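Some pathway genes outside the rule for named genes had large relative increases from low levels and were picked out after their values had been seen. TLR9, the endosomal sensor of CpG DNA, changed by 1.34 ± 0.30 log2 (SE; edgeR adjusted p = 8.5e-05), IL23A, the specific subunit of interleukin-23, by 1.15 ± 0.23 (adjusted p = 4.83e-06), and CSF1, the growth factor of macrophages, by 0.83 ± 0.16 (adjusted p = 2.05e-06). Under library sizes alone the values of TLR9, IL23A and CSF1 were 0.87, 0.68 and 0.36. TLR9 reached the cutoff of the count filter in 3 siNPM1c but 2 siControl libraries. The filter thus favoured its increase, and its p is no support.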
